A study of Mus musculus with 8 samples.

Results

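The genes described here are regulators of cardiac fuel metabolism: the nuclear receptors Ppara, Ppard, Pparg, Rxra, Esrra and Esrrg, the coactivators Ppargc1a and Ppargc1b, and the corepressors Nrip1 and Ncor1. A gene was taken from the array table where a row was annotated with that symbol alone, and where there were several such rows, the one with the highest mean was kept. By this rule 9 of the 10 listed genes were measured, among 19938 genes in all, and Ncor1 was not analysed here. The data were RNA levels on Affymetrix whole-transcript arrays, deposited as log2 values. The samples were hearts of 4 mice labelled MHC-Plin5 and 4 mice labelled control. All were male, of c57/bl background, 12 weeks old and described as fasted. The series title gives the model as overexpression of Plin5, the lipid droplet coat protein perilipin 5, in cardiomyocytes. The name MHC points to a myosin heavy chain promoter, and the labels do not state which line was used or whether the control mice were littermates. Hearts were treated as separate animals, since the series counts 4 mice in each group.

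Nuclear receptors of the PPAR group are switched on by fatty acids and bind DNA as pairs with an RXR receptor, and in heart muscle they raise genes of fatty acid uptake and oxidation. The ERR receptors are orphan receptors that bind genes of the respiratory chain and the tricarboxylic acid cycle. PGC-1 proteins, encoded by Ppargc1a and Ppargc1b, bind to both kinds of receptor and recruit the enzymes that open chromatin, while RIP140, encoded by Nrip1, binds them and represses the same genes. Both the supply of fatty acids and fasting are known to act on this system in the heart.

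The Plin5 row was higher in MHC-Plin5 hearts, at 12.17, 12.69, 12.63 and 12.08 in MHC-Plin5 1 to 4, with no overlap with the control hearts (limma adjusted p = 6.9e-07). The 8 listed markers of cardiomyocytes had means between 12.37 and 14.16 over all hearts, and 0 of them, Myh6 included, were called. The median of an array was 6.18 in MHC-Plin5 4 and 6.24 in control 2, and from 5.99 to 6.04 in the remaining 6 hearts. Because whole hearts were measured, fewer cells of a type cannot be told apart from less RNA per cell. Precision is limited by the 4 arrays in each group.

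Promoters of the 2 genes with the largest differences, Ppargc1a and Ppara, are shown because the text returns to them most often. Each is the stretch of 250 bases before a transcript start in RefSeq (build GRCm38.p6), and both lie inside the annotated span of their gene, which also holds starts further upstream. Capitals mark the motifs that were found.
Ppargc1a, chr5:51567726-51567975, minus strand: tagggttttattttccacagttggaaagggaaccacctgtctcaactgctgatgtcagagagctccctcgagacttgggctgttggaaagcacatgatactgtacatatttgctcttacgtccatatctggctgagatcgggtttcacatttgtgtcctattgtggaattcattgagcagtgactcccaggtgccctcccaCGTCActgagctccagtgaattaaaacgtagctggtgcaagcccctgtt
Ppara, chr15:85735526-85735775, plus strand: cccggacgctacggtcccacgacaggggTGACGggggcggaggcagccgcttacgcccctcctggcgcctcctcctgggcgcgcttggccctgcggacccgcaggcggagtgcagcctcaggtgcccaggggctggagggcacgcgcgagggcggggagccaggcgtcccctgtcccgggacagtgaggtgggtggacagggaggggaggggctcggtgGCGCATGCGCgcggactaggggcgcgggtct

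The motifs searched on both strands were the ERR element TCAAGGTCA, its shorter form AAGGTCA, the direct repeat of AGGTCA with 1 base between that PPAR and RXR pairs bind, the cAMP response element TGACGTCA, its shorter form TGACG, and the NRF1 element, GCGCA and GCGC with any base between. The shorter forms of the ERR and cAMP elements lie inside the longer ones. Ppargc1a held 1 match, to the short cAMP element on the opposite strand, 45 to 49 bases before the start. That short element was found in 17.8% of the 32851 promoter windows of this length. Ppara held the same short element and 1 NRF1 element, 22 to 31 bases before the start, and the NRF1 element was found in 3.74% of windows. Of the 9 measured regulators, 8 had an entry in the promoter table, with 15 starts in all, and Ppargc1b was the other. Neither the full ERR element (0.387% of all windows) nor the direct repeat (0.0335%) was found at any of the 15 starts, and AAGGTCA (4.08%) was found at 1 start of Rxra. A match or its lack describes these letters and does not show binding.

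None of the 9 measured regulators passed the test between the genotypes. In limma with Benjamini-Hochberg adjustment over all genes, 0 of 9 were called higher and 0 lower at an adjusted p under 0.05, where 2.08% of all genes were called higher and 1.17% lower. At an unadjusted p under 0.05 there was 1 of 9, Ppargc1a, against 16.6% of all genes. The log2 difference was under 0 in 6 genes and above 0 in 3. Its median over the 9 was -0.12, against -0.03 over all 19938 genes, of which 57.5% had a difference under 0. The 4 hearts of one group lay entirely to one side of the other group in 2 of the 9 genes, Ppargc1a and Nrip1, against 11.2% of all genes.

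**Figure D1:**
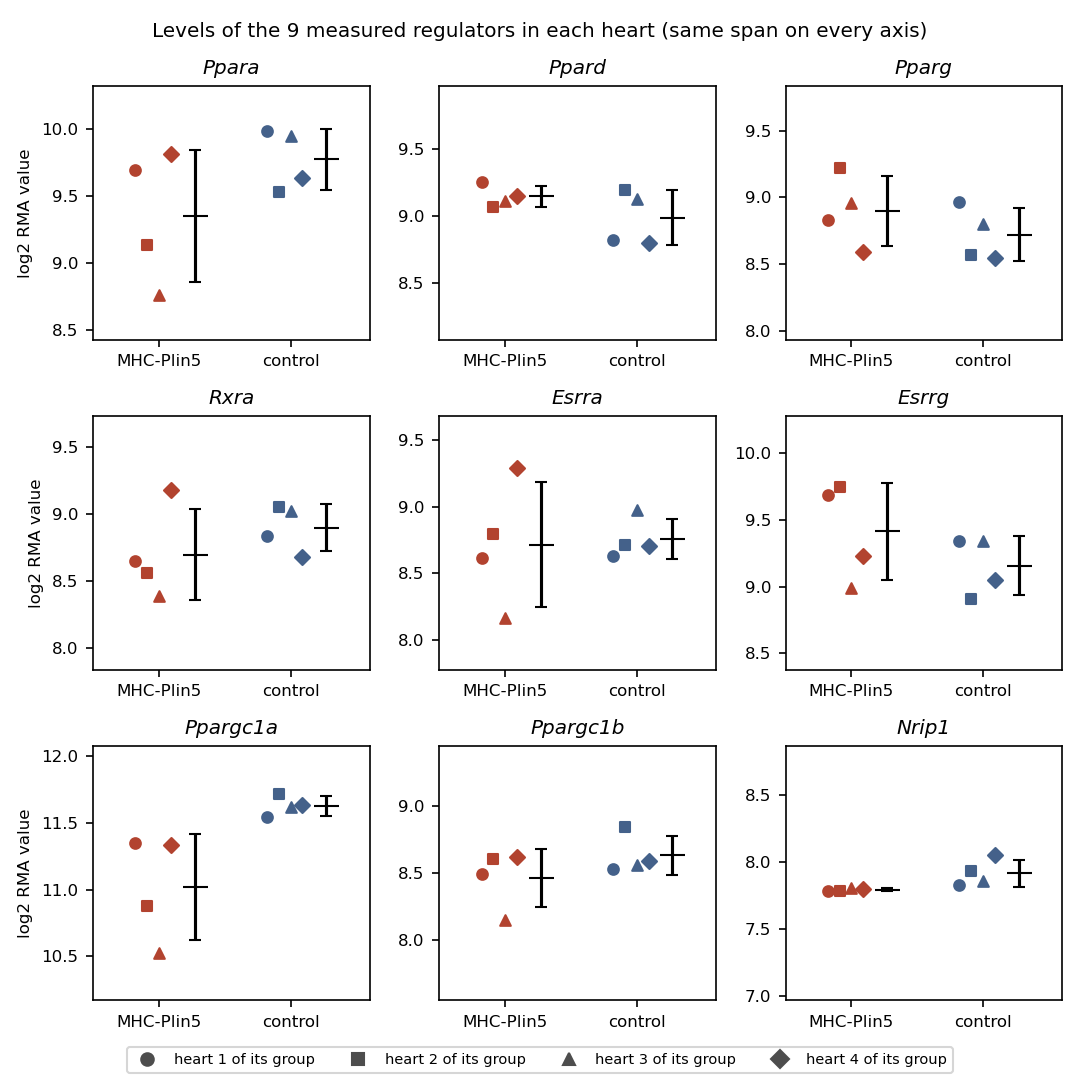
Log2 RMA value of the 9 measured regulators in each heart, with MHC-Plin5 hearts on the left and control hearts on the right of each panel; marker shapes give the heart number within its group, and the black dash with bars is the mean ± SD (n = 4). The axes differ in position but span the same width. Ppargc1a and Nrip1 are the 2 genes whose groups do not overlap, and the MHC-Plin5 hearts of Ppargc1a, Ppara and Esrra are spread more widely than the control hearts.

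The fatty acid receptors come first. Ppara, the main PPAR of heart muscle and a driver of fatty acid oxidation genes, stood at 9.70, 9.13, 8.76 and 9.81 in MHC-Plin5 1 to 4, against 9.99, 9.53, 9.95 and 9.63 in control 1 to 4. MHC-Plin5 2 and 3 lay below every control heart, while MHC-Plin5 1 and 4 lay within the control range. The means were 9.35 ± 0.49 in MHC-Plin5 and 9.78 ± 0.23 in control hearts (SD, n = 4 each), a log2 difference of -0.42 (SE 0.22, limma adjusted p = 0.365). The 95% interval ran from -0.90 to 0.05.

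Ppard, the PPAR found in most tissues, which also serves fatty acid oxidation in heart muscle, had 9.25, 9.07, 9.12 and 9.15 in MHC-Plin5 hearts, against 8.82, 9.20, 9.13 and 8.80 in control hearts. All 4 values with the transgene lay close together, in or just above the upper part of the control range. The log2 difference was 0.16 (SE 0.12, limma adjusted p = 0.547), with a 95% interval from -0.09 to 0.41. Pparg, the PPAR that drives fat cell formation, had 8.83, 9.22, 8.96 and 8.59 in MHC-Plin5 hearts, against 8.97, 8.57, 8.80 and 8.55 in control hearts. Its groups overlapped, with a log2 difference of 0.18 (SE 0.15, limma adjusted p = 0.610, 95% interval -0.14 to 0.50).

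Markers of fat cells varied between hearts. For the 6 measured adipocyte markers, the mean deviation from the control mean was -0.92, -0.90, -0.77 and -0.06 in MHC-Plin5 1 to 4, and -0.67, 0.01, -0.80 and 1.46 in control 1 to 4. Their summed linear signal ranged from 287 to 700 in MHC-Plin5 hearts and from 325 to 3882 in control hearts, and 0 of the 6 were called. Control 4, with the most adipocyte signal, had the lowest Pparg value. The part of fat cells in the Pparg values was not tested.

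Rxra, the partner receptor of the PPARs, had 8.65, 8.56, 8.39 and 9.18 in MHC-Plin5 hearts, against 8.84, 9.06, 9.03 and 8.68 in control hearts. MHC-Plin5 1 to 3 lay below every control heart and MHC-Plin5 4 above every one. The log2 difference was -0.20 (SE 0.16, limma adjusted p = 0.598), with a 95% interval from -0.56 to 0.15.

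The ERR receptors were not called either. Esrra had 8.62, 8.79, 8.17 and 9.29 in MHC-Plin5 hearts, against 8.63, 8.71, 8.97 and 8.70 in control hearts. The MHC-Plin5 hearts surrounded the control hearts on both sides, with MHC-Plin5 3 lowest and MHC-Plin5 4 highest of all 8. The means were 8.72 ± 0.46 and 8.75 ± 0.15 (SD, n = 4 each), a log2 difference of -0.04 (SE 0.20, limma adjusted p = 0.951), and its sign turned when a single heart, MHC-Plin5 3 or control 3, was left out (0.15 and 0.03) or the array medians were subtracted. The 95% interval from -0.47 to 0.40 corresponds to folds between 0.721 and 1.32. Esrrg, the ERR that supports oxidative metabolism in heart and muscle after birth, had 9.69, 9.75, 8.99 and 9.23 in MHC-Plin5 hearts, against 9.34, 8.90, 9.34 and 9.05 in control hearts. MHC-Plin5 1 and 2 lay above every control heart, and the log2 difference was 0.26 (SE 0.18, limma adjusted p = 0.524, 95% interval -0.13 to 0.64).

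Among the coactivators, Ppargc1a showed the largest difference of the 9 genes. Its product PGC-1 alpha is induced by fasting and exercise and promotes mitochondrial formation. Ppargc1a stood at 11.35, 10.88, 10.53 and 11.33 in MHC-Plin5 1 to 4, against 11.54, 11.72, 11.61 and 11.63 in control 1 to 4. All 4 MHC-Plin5 hearts lay below all 4 control hearts, MHC-Plin5 1 and 4 only slightly and MHC-Plin5 2 and 3 well below. The means were 11.02 ± 0.40 and 11.63 ± 0.07 (SD, n = 4 each). The log2 difference was -0.61 (SE 0.17, limma unadjusted p = 0.00425, adjusted p = 0.0855), a ratio of 0.657, with an unadjusted 95% interval from -0.98 to -0.23.

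The adjusted p of Ppargc1a crossed the threshold with array weights (0.0211) and without MHC-Plin5 1 (0.049996) or MHC-Plin5 4 (0.0375), and lay between 0.0563 and 0.226 under the other alternatives. A second Ppargc1a row of the array had 10.40, 9.92, 9.33 and 10.08 in MHC-Plin5 hearts, against 10.64, 10.76, 10.70 and 10.70 in control hearts. The order of the MHC-Plin5 hearts was the same as in the first row, and the groups again did not overlap. In a fit over all 35556 rows of the table, the difference of this row was -0.77 (SE 0.20, limma adjusted p = 0.125). The first row had -0.61 in that same fit (SE 0.18, limma adjusted p = 0.183).

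Ppargc1b, which encodes the related coactivator PGC-1 beta, had 8.49, 8.60, 8.15 and 8.62 in MHC-Plin5 hearts, against 8.53, 8.85, 8.56 and 8.59 in control hearts. MHC-Plin5 1 and 3 lay below every control heart, the first only slightly, and MHC-Plin5 2 and 4 within the control range. The log2 difference was -0.17 (SE 0.13, limma adjusted p = 0.575), with a 95% interval from -0.44 to 0.11. Nrip1, the corepressor, had 7.78, 7.79, 7.81 and 7.80 in MHC-Plin5 hearts, against 7.83, 7.93, 7.86 and 8.05 in control hearts. The MHC-Plin5 hearts were nearly identical and all lower than the control hearts, but the gap was small, with a log2 difference of -0.12 (SE 0.09, limma adjusted p = 0.551, 95% interval -0.32 to 0.07).

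**Figure D2:**
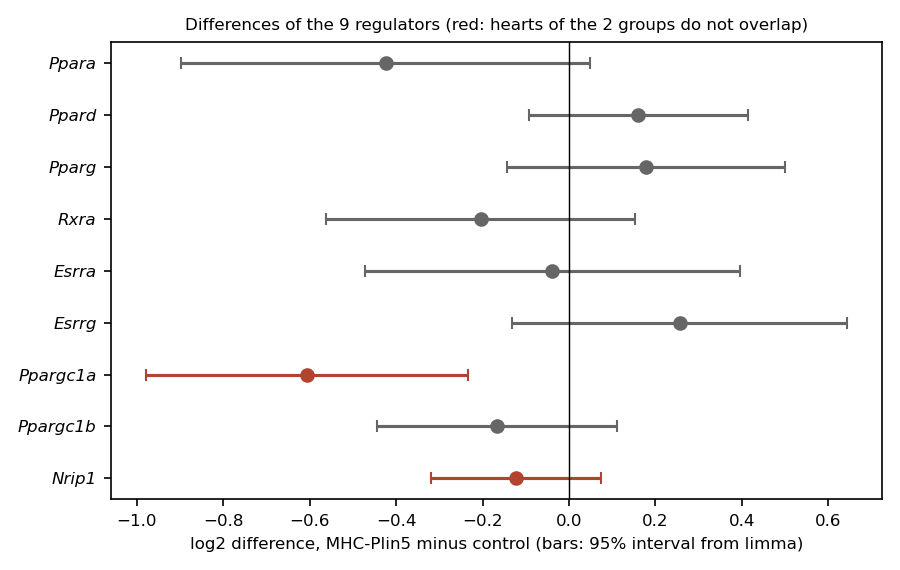
Log2 difference, MHC-Plin5 minus control, of the 9 measured regulators on the horizontal axis, with bars for the unadjusted 95% interval from limma (n = 4 hearts each). Red marks the 2 genes whose hearts do not overlap between the groups. The interval of Ppargc1a, from -0.98 to -0.23, lies below 0, and the other 8 intervals include 0.

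Related genes were then set against each other within each heart, which asks whether the genotype difference was unequal between them. The value tested was the log2 level of one gene minus that of the other in each heart, with an exact two-sided permutation test over hearts and adjustment over the 4 pairs that could be formed. With 4 against 4 hearts the smallest p this test can give is 0.0286. The difference of Ppargc1a minus that of Ppargc1b was -0.44 (SE 0.14, exact permutation p = 0.0286, adjusted 0.114), and the hearts of the groups did not overlap in this value. Ppara against Ppard gave -0.58 (SE 0.28, exact permutation p = 0.0857, adjusted 0.171), and Ppara against Pparg gave -0.60 (SE 0.35, exact permutation p = 0.2, adjusted 0.267). Esrra against Esrrg gave -0.29 (SE 0.28, exact permutation p = 0.371, adjusted 0.371). After adjustment 0 of the 4 pairs passed. The pair of Ppargc1a and Ppargc1b was at the smallest p the test can give, and at least 3 of the 4 pairs would have had to reach it for any to pass after adjustment.

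The MHC-Plin5 hearts differed more among themselves than the control hearts did for most of these genes. The SD was larger in MHC-Plin5 hearts in 7 of the 9 genes and smaller in Ppard and Nrip1, and over all genes it was larger in MHC-Plin5 hearts in 56.2%. The ratio of the SDs, MHC-Plin5 over control, was 5.45 for Ppargc1a, 3.10 for Esrra and 2.16 for Ppara, against 0.379 for Ppard and 0.120 for Nrip1. MHC-Plin5 3 held the lowest MHC-Plin5 value in 6 of the 9 genes, and MHC-Plin5 4 the highest in 4. The shares of all genes with these orders were not counted, so the counts cannot be called particular to the regulators. MHC-Plin5 4 also had the highest array median of its group. Without MHC-Plin5 4 and control 2, the arrays of highest median, the log2 differences were -0.66 for Ppara, -0.68 for Ppargc1a, -0.31 for Rxra and -0.24 for Esrra. Those of Ppard and Pparg were both 0.23, against 0.16 and 0.18 with all hearts. Esrrg had 0.23 (0.26 with all hearts), Ppargc1b -0.145 (-0.166) and Nrip1 -0.119 (-0.124). In that fit 0 of the 9 genes were called.

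Markers of other cells also differed in MHC-Plin5 3. The 6 fibroblast markers had mean deviations from the control mean of -0.08, 0.20, 0.59 and 0.36 in MHC-Plin5 1 to 4, and the 5 measured macrophage markers 0.07, 0.08, 0.70 and 0.54. In control 1 to 4 these were -0.22, 0.13, -0.11 and 0.20 for fibroblast and -0.30, 0.25, -0.01 and 0.06 for macrophage markers. The 8 cardiomyocyte markers had -0.02, -0.11, -0.20 and 0.06 in MHC-Plin5 1 to 4, and between -0.02 and 0.02 in control hearts. The 5 atrial markers had 0.35, -1.03, 2.56 and 1.51 in MHC-Plin5 1 to 4, and -1.34, 0.90, -1.82 and 2.26 in control 1 to 4. Summed linear signal ranged from 9351 to 13111 for fibroblast markers in MHC-Plin5 hearts and from 8825 to 11426 in control hearts. For macrophage markers it ranged from 1332 to 2107 in MHC-Plin5 hearts and from 1054 to 1538 in control hearts. None of these markers was called, and their part in the values of the regulators was not tested. Without MHC-Plin5 3 the log2 difference of Ppargc1a was -0.44 (limma adjusted p = 0.152).

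**Figure D3:**
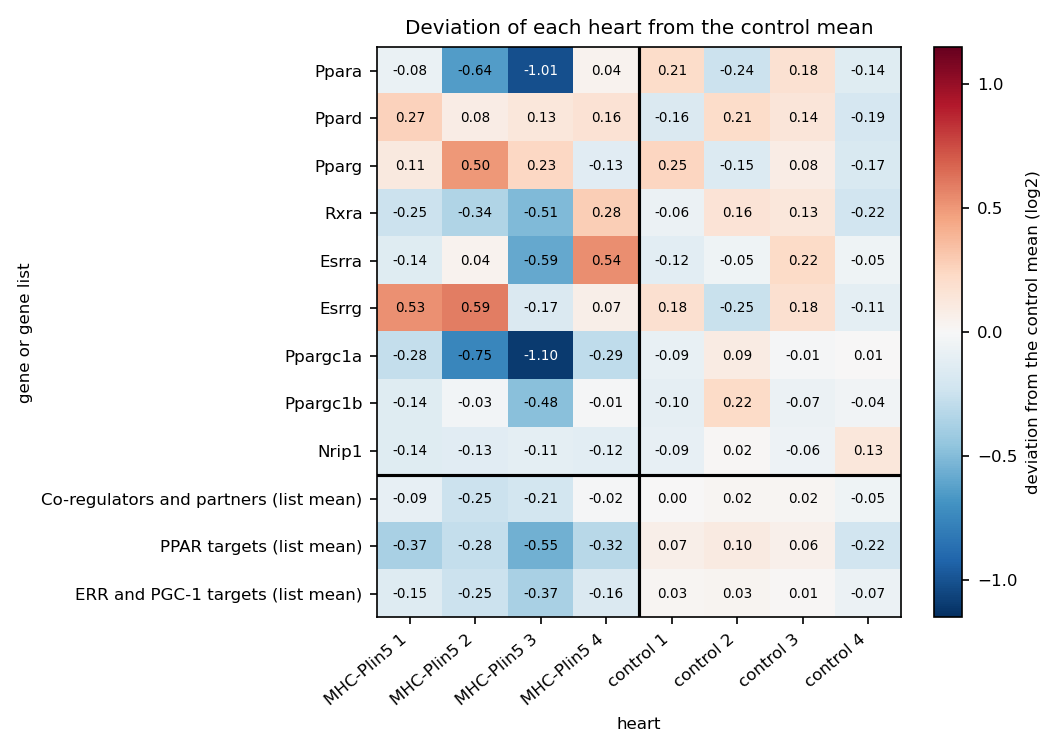
Deviation of each heart from the control mean on the log2 scale for the 9 regulators and, in the lower 3 rows, the mean over each of 3 gene lists; MHC-Plin5 hearts are the left 4 columns and control hearts the right 4. Blue is lower and red higher than the control mean. MHC-Plin5 3 is the lowest of its group in Ppara, Rxra, Esrra, Esrrg, Ppargc1a and Ppargc1b and in the lists of PPAR targets and ERR and PGC-1 targets. The share of all genes with MHC-Plin5 3 lowest was not counted.

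The proteins that work with these regulators formed a list of 44 genes of which 41 were measured. Of these, 0 were called higher and 1 lower, near the 3.25% called among all genes, and the list median was -0.10, against -0.03 over all genes. At an unadjusted p under 0.05 in limma, 13 of the 41 were lower and 3 higher, where 7.86% of all genes were lower and 8.69% higher. This list was drawn up with earlier results of these data known. The called gene was Mapk14, the p38 alpha kinase, which phosphorylates PGC-1 alpha. Mapk14 had 9.53, 9.19, 9.35 and 9.26 in MHC-Plin5 hearts, against 9.88, 9.75, 9.87 and 9.75 in control hearts, a log2 difference of -0.48 (SE 0.10, limma adjusted p = 0.0295). All MHC-Plin5 hearts lay below all control hearts. The call was lost without any single heart other than MHC-Plin5 1 or 4 (limma adjusted p up to 0.108) and with array medians subtracted.

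The next genes by p-value in this list did not pass the test. Hdac3, a histone deacetylase that serves corepressor complexes, had a log2 difference of -0.44 (SE 0.12, limma adjusted p = 0.0720). Kat2a, an acetyltransferase that acetylates PGC-1 alpha, had 0.42 (SE 0.12, limma adjusted p = 0.102). Pprc1, the third member of the PGC-1 family, had 7.06, 7.35, 7.48 and 7.23 in MHC-Plin5 hearts, against 6.94, 6.95, 7.02 and 6.75 in control hearts. All MHC-Plin5 hearts lay above all control hearts, with a difference of 0.36 (SE 0.11, limma adjusted p = 0.121). The sign for Pprc1 was thus opposite to that for Ppargc1a, with neither gene called.

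Targets of the PPAR receptors formed a list of 32 genes of which 28 were measured. Of these, 7 fell and 1 rose, or 28.6% of the list against 3.25% of all genes, and the list median was -0.34, against -0.03 over all genes. The list was drawn up with earlier results of these data known, so its direction is not independent evidence. Those that fell were Ucp3, a mitochondrial carrier, by 1.55 on the log2 scale (SE 0.33), the thiolase Acaa2 by 0.96 (SE 0.17), the auxiliary enzymes Ech1 by 0.80 (SE 0.14) and Decr1 by 0.68 (SE 0.13), the thioesterase Acot1 by 0.75 (SE 0.15), the carnitine carrier Slc25a20 by 0.74 (SE 0.15) and the malonyl-CoA decarboxylase Mlycd by 0.49 (SE 0.12). Their limma adjusted p values lay between 0.0136 for Acaa2 and 0.0498 for Mlycd. Ucp3 in control 4 was 7.54, against 8.93 to 9.28 in the other control hearts and 7.46 in MHC-Plin5 4. Its difference was -1.93 without control 4, and its call was lost with an intensity trend and robust variances (limma adjusted p = 0.0716). Acot1 is nearly identical to Acot2, so the signal of the pair may not be fully separate. Acot2 had means of 12.16 in MHC-Plin5 and 12.22 in control hearts, a log2 difference of -0.06 (SE 0.21, limma adjusted p = 0.924). Acot1 was much dimmer, with means of 6.34 and 7.09, not far above the array medians. The gene that rose was Fgf21, a stress hormone, with a log2 difference of 0.58 (SE 0.13, limma adjusted p = 0.0406). Its signal was low, with means of 6.16 in MHC-Plin5 and 5.59 in control hearts, where array medians lay between 5.99 and 6.24.

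Mlycd had 7.83, 7.87, 7.68 and 8.15 in MHC-Plin5 hearts, against 8.33, 8.40, 8.53 and 8.23 in control hearts. Its MHC-Plin5 hearts all lay lower, and its call was lost with any single heart left out except MHC-Plin5 4. Acadvl, Cpt2 and Hadha, enzymes of long-chain fatty acid oxidation, had differences of -0.61, -0.54 and -0.44 and did not pass (limma adjusted p = 0.0712, 0.0806 and 0.0867). The number of PPAR targets that fell was 1 without control 3, 2 when any one of control 1, control 2 and MHC-Plin5 2 was left out, 4 when MHC-Plin5 3 was, and 11 when MHC-Plin5 4 was. Acaa2 kept its call with each single heart left out, and Ech1 lost its call without control 3. Decr1 and Slc25a20 lost theirs without MHC-Plin5 2 or any one of control 1 to 3, and Acot1 and Ucp3 also without MHC-Plin5 3. Fgf21 kept its call without MHC-Plin5 4 and lost it without any other single heart.

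Targets of the ERR receptors and PGC-1 formed a list of 34 genes of which 30 were measured, and 2 measured genes stand in both target lists. All 30 had a log2 difference under 0, where 57.5% of all genes did. With array medians subtracted it was 26 of 30, where 9492 of all 19938 genes were under 0. With repeated quantile normalization it was 30 of 30, where 10399 of all 19938 genes were. The list median was -0.24, against -0.03 over all genes. Like the PPAR targets, this list was drawn up with earlier results known. At an adjusted p under 0.05 in limma, 1 gene fell and 0 rose, or 3.33% against 3.25% of all genes. The gene that fell was Fh1, the fumarate hydratase of the tricarboxylic acid cycle, with 12.12, 11.84, 11.66 and 11.98 in MHC-Plin5 hearts, against 12.45, 12.50, 12.32 and 12.35 in control hearts. Its groups did not overlap, with a log2 difference of -0.50 (SE 0.11, limma adjusted p = 0.0385), and the call was lost without any single heart other than MHC-Plin5 1 or 4. Etfdh, which passes electrons from fatty acid oxidation to the respiratory chain, had -0.63 (SE 0.16, limma adjusted p = 0.0630). Ndufs1 of complex I had -0.43 (SE 0.11, limma adjusted p = 0.0657) and Uqcrc1 of complex III -0.34 (SE 0.09, limma adjusted p = 0.0679). At an unadjusted p under 0.05 there were 14 lower and 0 higher genes among the 30, where 7.86% of all genes were lower and 8.69% higher. The number that fell at an adjusted p under 0.05 was 4 when MHC-Plin5 4 was left out, 2 when MHC-Plin5 1 was, and 0 for each of the other hearts.

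**Figure D4:**
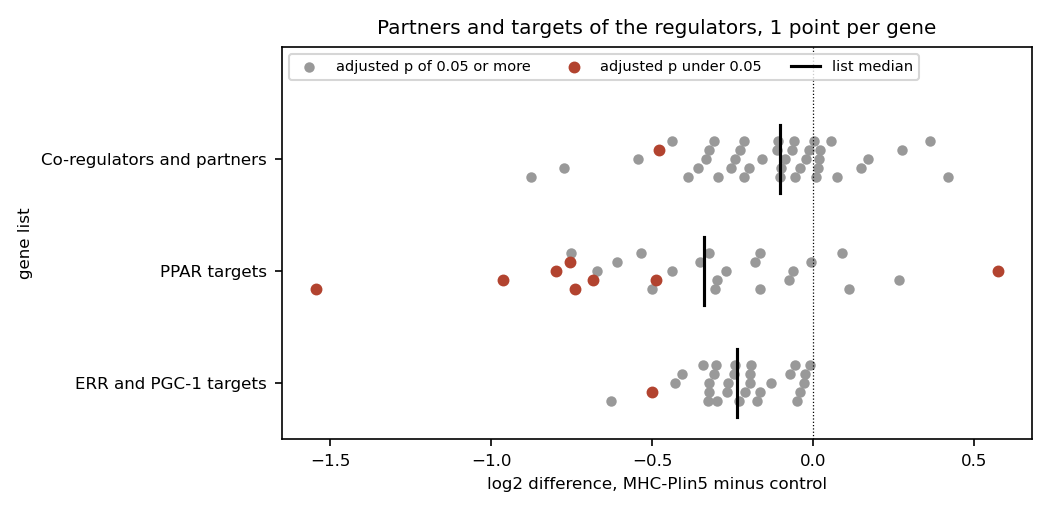
Log2 difference, MHC-Plin5 minus control, of every measured gene in 3 lists (41 partners and co-regulators, 28 PPAR targets, 30 ERR and PGC-1 targets). Red points passed an adjusted p under 0.05 in limma, grey points did not, and black bars are list medians. The medians are -0.10, -0.34 and -0.24, and all 30 points of the ERR and PGC-1 targets lie below 0 (26 of 30 with array medians subtracted).

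The mean deviation of a list in each heart was compared with the regulators. PPAR targets stood at -0.37, -0.28, -0.55 and -0.32 in MHC-Plin5 1 to 4, against 0.07, 0.10, 0.06 and -0.22 in control 1 to 4. The 4 MHC-Plin5 hearts were lower than the control hearts, with control 4 nearest to them. ERR and PGC-1 targets stood at -0.15, -0.25, -0.37 and -0.16 in MHC-Plin5 hearts, against 0.03, 0.03, 0.01 and -0.07 in control hearts. MHC-Plin5 2 and 3 were the lowest hearts in this list mean and in Ppargc1a, and also in the mean of the cardiomyocyte markers (-0.11 and -0.20). In the PPAR targets MHC-Plin5 2 was the least lowered of its group, though its Ppara value of 9.13 lay below every control heart. A link between regulators and lists was not tested.

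Genes whose pattern over the 8 hearts was closest to that of a regulator were found by the mean absolute difference between deviations from the control mean. For Ppargc1a, 12136 other genes with a mean level of at least 6 were searched. The closest was Eno3, the muscle enolase of glycolysis, with 12.85, 12.39, 11.98 and 12.85 in MHC-Plin5 hearts, against 13.17, 13.21, 13.18 and 13.14 in control hearts. Its profile differed from that of Ppargc1a by 0.050 on the log2 scale on average, where the median gene differed by 0.361. Next were Fbxw7, a subunit that selects proteins for ubiquitination, at 0.071 and Mtfp1, a protein of mitochondrial fission, at 0.073. For Ppara the closest were Abca12, a lipid transporter, at 0.076, Mlxipl, the glucose-responsive transcription factor ChREBP, at 0.080 and Fdx1, a mitochondrial ferredoxin, at 0.098. All 6 genes had log2 differences under 0 and 0 of them were called, with limma adjusted p values between 0.0720 for Eno3 and 0.357 for Fdx1. Since the genes were picked for matching a regulator heart by heart, the shared direction follows from the choice and is not a separate result.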

How the data were processed

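The deposited log2 values came from RMA, run by the authors with the software Affymetrix Expression Console. The submitters' processing notes name both, and the version and settings are not named there. Values ran from 2.02 to 14.66. Of 35556 rows, 21789 had 1 gene symbol, 1621 several and 12146 none in GEO's platform annotation; 21698 gene IDs matched RefSeq (GRCm38.p6) and 0 symbols changed. The row with the highest mean was kept for each of 999 genes with several rows, leaving 19938 genes. No filter on dim rows was applied.

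Each gene was fitted with lmFit and eBayes of limma 3.58.1 in R 4.3.3, two-sided, with genotype as the only term and Benjamini-Hochberg adjustment over all genes. Pairs of genes were compared with exact permutation tests (scipy 1.17.1, Python 3.11.15). Intervals are 95% and unadjusted. The gene fit was tested on simulated data.

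The regulators and lists were chosen with earlier results of these data known. Named genes were the regulators, Plin5, the called members and the next 3 by p of each list, and the 3 closest profiles of the 2 regulators with the largest differences. Genes named only in the closing section were chosen after their values were seen. Alternatives were filters at a mean of 5 or 7, repeated quantile normalization, median subtraction, an intensity trend with robust variances, array weights, means over rows, the heart number as a block, each heart left out, and thresholds of 0.01 and 0.1. Leaving out the 2 arrays of highest median and using the second Ppargc1a row were added after the data were seen. Deviations of same-numbered hearts correlated at 0.187, 0.025, -0.107 and -0.040 for numbers 1 to 4, so the number was not taken to pair hearts. The planned comparison of Nrip1 with Ncor1 could not be made. No batch information was used here.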

Additional observations from a re-analysis of the deposited data

Results flagged for a closer look

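Control 4 stood apart from the other control hearts in 2 of the genes named above, where its gap to the nearest heart was large for the range of its group. In Decr1 it had 11.39, against 11.65 to 11.71 in the other control hearts, and in Etfdh it had 11.95, against 12.17 to 12.20. In both genes control 4 was the control heart nearest to the MHC-Plin5 hearts. Altogether 56 groups of 4 hearts were examined in this way, and chance flags about 1 in 20 such groups. None of the 9 regulators had such a heart in either group.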

How the results depend on the processing

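Over all 17 alternatives fitted for each gene, the log2 differences of Ppara, Ppard, Pparg, Ppargc1b, Rxra, Esrrg and Nrip1 kept their sign and none of these genes was called. Esrra changed sign with array medians subtracted (0.0031) and spanned -0.23 to 0.15 with single hearts left out. Ppargc1a spanned -0.72 to -0.44 with single hearts left out and was called with array weights (-0.63). The number of called regulators was 0 or 1 with single hearts left out, 1 with array weights and 1 at a threshold of 0.1.

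Called genes over the whole array were 415 higher and 233 lower. Leaving out single hearts gave 170 to 614 higher and 56 to 560 lower. Array weights gave 884 and 741, thresholds of 0.01 and 0.1 gave 129 and 40, and 668 and 462, and repeated quantile normalization gave 355 lower.

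For the lists, single hearts left out gave 0 to 4 lower and 0 to 1 higher partners, 1 to 11 lower and 0 to 1 higher PPAR targets, and 0 to 4 lower ERR and PGC-1 targets. Array weights gave 6, 12 and 8 lower in these lists. A filter at a mean of 7 gave 2 lower partners, 0 higher PPAR targets and 5 lower ERR targets. Fgf21 and Acot1 had means over all hearts under that filter and were not in its fit. Repeated quantile normalization gave 2 lower partners and 4 lower ERR targets, and the intensity trend 2 and 5. Subtracting medians gave 0 lower and 1 higher partner and 2 ERR targets. Without the 2 arrays of highest median there were 0 lower partners and 0 ERR targets. Thresholds of 0.01 gave 0 in every list, and 0.1 gave 2 partners and 5 ERR targets. The replicate block gave 0 lower partners, 0 higher PPAR targets and 0 ERR targets, with Ppargc1a at an adjusted p of 0.102, and hearts are not stated to be paired. The 4 pair comparisons kept their sign and 0 passed, though with a heart left out the test cannot reach 0.05. The cause of these shifts was not tested. Precision is limited by 4 arrays in each group.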

Other observations

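Within the MHC-Plin5 group the hearts could be set beside their own Plin5 level, a choice made after the values were seen. MHC-Plin5 2 and 3 had the higher Plin5 values (12.69 and 12.63) and MHC-Plin5 1 and 4 the lower ones (12.17 and 12.08). MHC-Plin5 2 and 3 both lay below MHC-Plin5 1 and 4 in Ppargc1a, Ppara, Ppard and Rxra, or 4 of the 9 regulators, where 28.6% of all genes showed this order. The same order was found in 17 of 41 partners (41.5%), 12 of 28 PPAR targets (42.9%) and 24 of 30 ERR and PGC-1 targets (80.0%). It was not particular to these lists. Of the 8 cardiomyocyte markers, Myh6, Tnni3, Myl2, Ryr2, Pln and Mybpc3 had it, and Actc1 and Tnnt2 did not. Mean deviations of those 8 markers were -0.02, -0.11, -0.20 and 0.06 in MHC-Plin5 1 to 4. The examples named here were picked because they show the order described. Lpin1, whose product lipin 1 is a partner of PGC-1 alpha, had 10.45, 9.04, 8.98 and 10.84 in MHC-Plin5 1 to 4, against 10.54, 10.78, 10.81 and 10.70 in control 1 to 4 (log2 difference -0.88, SE 0.36, limma adjusted p = 0.251). Rxrg, the RXR form of striated muscle, had 10.55, 9.63, 9.22 and 10.54 in MHC-Plin5 hearts, against 10.76, 10.82, 10.78 and 10.68 in control hearts (-0.77, SE 0.26, limma adjusted p = 0.149).

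The opposite order, with MHC-Plin5 2 and 3 both above MHC-Plin5 1 and 4, was found in 4 of 28 PPAR targets (14.3%), against 15.6% of all genes. These were Pdk4, Angptl4, Plin2 and Cpt1a, so this order was no more frequent in the list than over all genes. Among the 9 regulators Pparg alone had this order, and among the partners 6 of 41 had it. Pdk4, which spares glucose by inhibiting pyruvate oxidation, had 11.23, 12.96, 12.41 and 11.34 in MHC-Plin5 1 to 4, against 12.45, 12.44, 12.32 and 11.92 in control 1 to 4. Angptl4, a secreted inhibitor of lipoprotein lipase, had 6.75, 8.82, 7.85 and 6.83 in MHC-Plin5 hearts, against 8.11, 8.11, 8.94 and 7.10 in control hearts. Plin2, another lipid droplet coat protein, had 10.44, 11.12, 11.10 and 10.34 in MHC-Plin5 hearts, against 10.50, 10.63, 10.60 and 10.18 in control hearts. Pdk4, Angptl4 and Plin2 were picked for this order, with MHC-Plin5 2 and 3 highest of their group, while both were lowest in Ppargc1a and Ppara. The order was not tested, and Pdk4, Angptl4 and Plin2 were not called between the genotypes (limma adjusted p = 0.724, 0.659 and 0.533).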
